A study of Mus musculus with 4 samples.

Results

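Potassium channel genes were followed in RNA of the dentate gyrus, where the granule cells of the hippocampus lie, from handled control mice. They were taken as every probe set annotated with a single gene symbol that begins with Kcn and a further letter, which gave 51 of the 12488 probe sets of the array and 42 of 8251 named genes. All 4 samples were total RNA from young male C57BL/6J mice that an experimenter handled and that received no other treatment, and their RNA dates from 1, 2, 4 or 6 h past the final shock of a parallel experimental group. The shocked mice were not analysed here, and the sources used here give no exact age, number of mice per sample or time of day. Each hour had 1 array, so a value at a single hour has no replicate error, and p-values measure only the scatter of these samples about a line over the hours. Values are array intensities on a linear scale and are given in the order 1, 2, 4 and 6 h.

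Potassium channels let potassium leave the cell and so set the resting potential, repolarise action potentials and limit firing. Voltage-gated pore subunits assemble as tetramers, often with cytoplasmic beta, KChIP or single-span auxiliary subunits, while electrically silent subunits conduct only within mixed tetramers. Inward rectifiers and tandem-pore leak channels act near the resting potential, and calcium-activated channels follow calcium entry. Granule cells of the dentate gyrus are known for a very negative resting potential and sparse firing.

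A gene was tested if the mean log2 intensity of its brightest probe set reached 7.41 (an intensity of 170.4). This held for 17 of the 42 genes and, as the filter was set on all genes, for 4951 of all 8251. The filter uses the mean of the same arrays, so a gene can pass it through 1 bright hour. Intensities under the floor of 38.3, the 20th percentile of all values, were treated as equal. Of the 51 probe sets, 29 lay above the floor at every hour and 5 lay at or under it at every hour. Among all 10833 probe sets with a single symbol these counts were 7473 and 755. Brightness depends on each probe's own hybridisation, so levels of different genes are not ranked.

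None of the potassium channel genes passed the test for a trend with the hour. With limma 0 of 17 had an adjusted p under 0.05, against a background of 0% of 4951 genes tested, and no adjusted p was below 0.99993. Of the 17, 1 had an unadjusted p under 0.05, the inward rectifier Kcnj9, beside 2.02% of all genes tested. The slope was positive for 12 genes and negative for 5, with a median of 0.03 log2 per h, where 49.9% of all genes tested had a positive slope. The slopes of the members ran from −0.12 to 0.31 log2 per h with standard errors from 0.05 to 0.13 (n = 4 samples). Hour and array cannot be told apart in these samples.

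Differences between hours were mostly under 2-fold. The highest and lowest hours were over 2-fold apart in 3 of the 17 genes, Kcnj9, Kcnj4 and Kcnk7, where 15% of all genes tested were. Over 1.5-fold apart were 12 of 17, against 46.5% of all genes. The median span was 1.67-fold for the members and 1.47-fold for all genes, and the median SD over the 4 samples was 0.35 and 0.25 log2. Spans depend on brightness: among genes with a mean intensity under 1000, a split chosen after the values were seen, 10 of 12 members and 56% of genes spanned over 1.5-fold. Among brighter genes it was 2 of 5 members and 25.6% of genes. These counts carry no test.

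**Figure D1:**
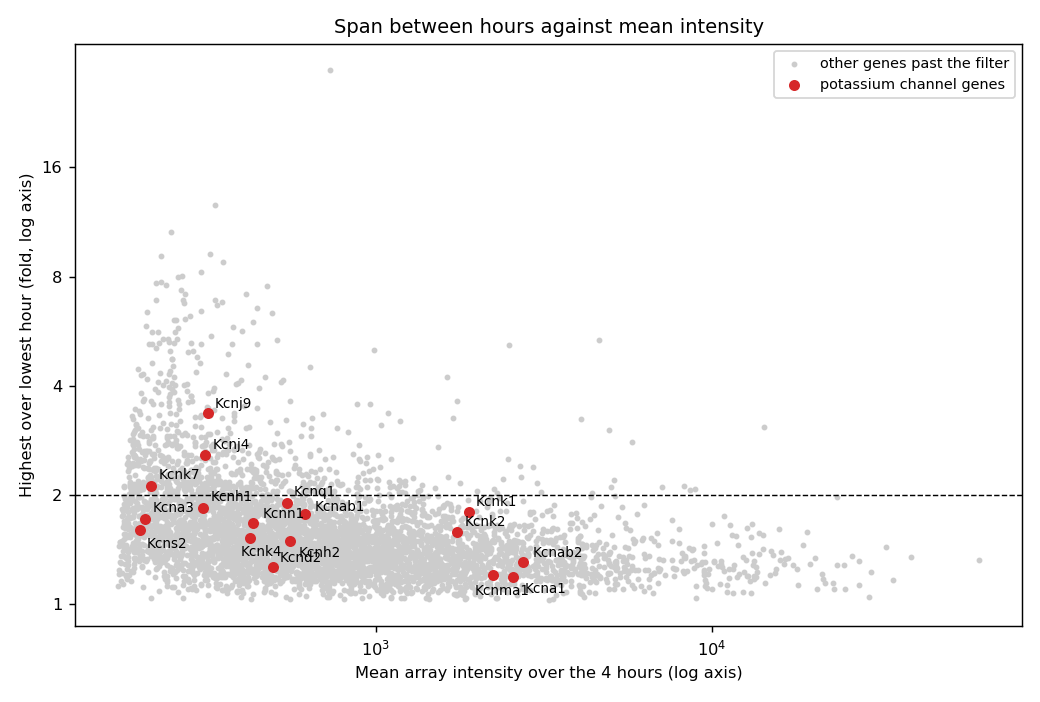
Highest over lowest of the 4 hours (fold, log axis) against mean intensity over the 4 hours (log axis), with 1 point per gene past the filter; red points are the 17 potassium channel genes and the dashed line marks 2-fold. Kcnj9, Kcnj4 and Kcnk7 lie above the line and Kcna1 and Kcnma1 near the bottom.

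Among voltage-gated pore subunits, 6 of 14 genes were past the filter. Kcna1, a delayed rectifier of axons that keeps neurons from firing repeatedly, read 2290.5, 2557, 2685 and 2720.3, with a mean of 2563 ± 195 (SD, n = 4). It was the 1 member of 17 that was higher at each step, as were 2.65% of all genes tested (0 of 17 members and 2.4% of genes were lower at each step), but the whole span was 1.19-fold and its slope was 0.04 ± 0.05 log2 per h (SE, n = 4, limma adjusted p = 0.99993). After quantile normalization its highest value was at 4 h. Kcna3, of the same subfamily and also known from lymphocytes and microglia, read 163, 151.5, 260.0 and 247, lower at 1 and 2 h than at 4 and 6 h.

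Kcnd2, the main pore subunit of the dendritic A-type current, read 520.3, 548, 434 and 465 and spanned 1.26-fold on its tested probe set. Its second probe set spanned over 2-fold. Kcnh2, the ERG channel that slows spike trains, read 434, 637, 647 and 497. Kcnh1, the ether-a-go-go channel of presynaptic terminals, read 349.9, 199.5, 307 and 366. Its value at 2 h was 1.71-fold below the geometric mean of the other 3 hours, which lay close together. Kcnq1, best known as the slow cardiac and epithelial delayed rectifier, read 505, 434, 804 and 424 and stood 1.77-fold above the other hours at 4 h. That peak was on 1 of its 2 probe sets, and the mean of both departed by 0.07 log2 in place of 0.83.

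Markers of choroid plexus, an epithelium that borders the hippocampus, differed between the same samples: transthyretin (Ttr) read 81.3, 234, 2408 and 191, Kl 134, 135, 204 and 167, and Folr1 58.2, 51.2, 126 and 109. These 3 of the 5 choroid plexus genes with a probe set were highest at 4 h, while Igf2 and Aqp1 were highest at 2 h. The summed intensity of the 2 past the filter, Ttr and Igf2, was 1930.4, 4636, 5363 and 2712. Their part in the value of the tested Kcnq1 probe set was not tested. In whole tissue, fewer cells of a type and less RNA per cell cannot be told apart.

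The pore subunits under the filter held several well-known neuronal channels at low intensity. Kcnc1, the fast delayed rectifier of fast-spiking interneurons, read 192, 51.4, 34 and 111.5. The interneuron marker Pvalb read 3385, 2528.5, 2753 and 2304.5. It was 1 of 2 of the 8 tested interneuron markers that were highest at 1 h, while 4 were highest at 2 h and 2 at 6 h. Their part in the Kcnc1 value was not tested. Kcna2, which joins Kcna1 in axonal channels, read 21.1, 209.7, 52.4 and 114, and Kcnd3, a further A-type subunit, read 65.3, 277, 100.4 and 103. Both were highest at 2 h. Kcna4, an axonal A-type subunit, was also highest at 2 h, with 59.9, 124, 60.2 and 23.5, as was Kcna7, a channel of muscle, with 39.6, 126.5, 112 and 57.4. The A-type subunit Kcnd1 read 23.1, 24.2, 48.9 and 116. Kcna6, another subunit of the Kcna1 subfamily, read 62, 5.6, 21.9 and 6.1 and was above the floor at 1 h alone. For Kcna5, a channel of heart and vascular muscle, 1 probe set read 60.3, 65.7, 76.9 and 16.2 and the other 9, 17, 117 and 22.4.

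Auxiliary subunits of voltage-gated channels had 2 of 5 genes past the filter, both of them cytoplasmic beta subunits that bind Kcna1 and its relatives. Kcnab2 read 2462, 2807, 2492 and 3202, with a mean of 2741 ± 345 (SD, n = 4). Kcnab1, the beta subunit that adds fast inactivation, read 567, 865, 539 and 489.6. Its value at 2 h was 1.63-fold above the geometric mean of the other 3 hours, which lay close together. Kcnab3, the remaining beta subunit, was under the filter with 181, 158, 52.1 and 208 and had its lowest value at 4 h. The single-span subunit genes Kcne1, known from heart and inner ear, and Kcne1l were under the filter. Kcne1 read 45, 45.6, 72 and 30.8. Kcne1l read 39.2, 39.7, 57.8 and 107, higher at each step, just above the floor at 1 and 2 h and well above it at 6 h. The silent modifier Kcns2, a partner of the Kcnb subunits, read 239, 199.9, 202 and 150.0 and was past the filter. Its relative Kcns1 was under it at 110.0, 165, 188 and 150.0.

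**Figure D2:**
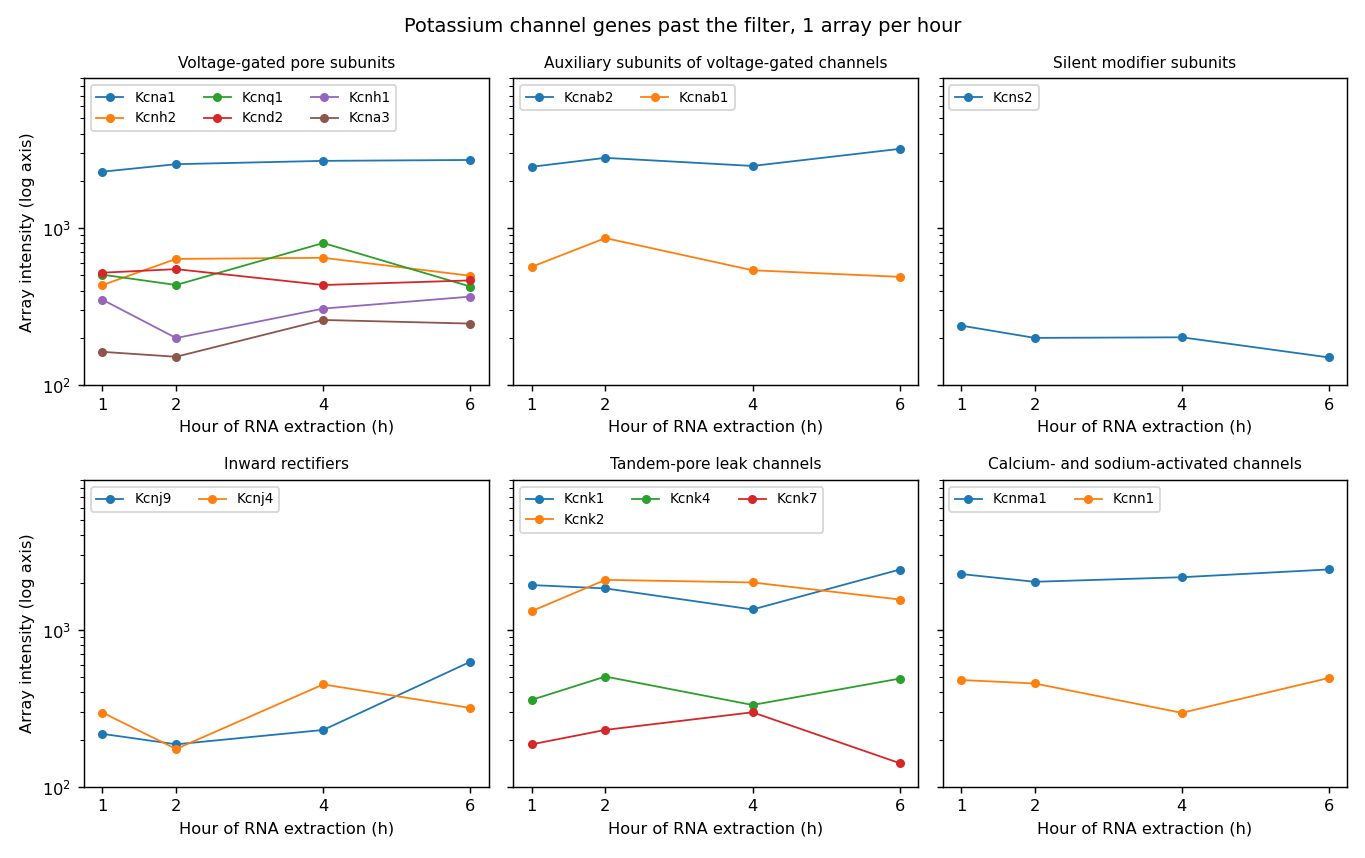
Array intensity (log axis) of the 17 potassium channel genes past the filter against the hour of RNA extraction, in 1 panel per family and with 1 array per point, so no error bars can be drawn. Kcna1 and Kcnma1 are nearly level, while Kcnj9 is highest at 6 h and Kcnj4 lowest at 2 h.

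Inward rectifiers had 11 genes on 15 probe sets. Kcnj4 and Kcnj9 were past the filter, and both spanned over 2-fold. Kcnj4, a strong inward rectifier of forebrain neurons, read 297, 174, 449 and 318. It was 2-fold below the geometric mean of the other hours at 2 h and spanned 2.58-fold. Kcnj9, a subunit of the G protein-gated channels through which GABA-B and adenosine receptors hyperpolarise neurons, read 217, 186.5, 230.3 and 627. It stood 2.98-fold above the other hours at 6 h and was the 1 member over 2-fold above every other hour, as were 0.747% of all genes tested. Below every other hour by over 2-fold were 0 of 17 members and 2.91% of genes. Its slope was 0.31 ± 0.11 log2 per h (SE, n = 4, limma adjusted p = 0.99993), and 0.05 without the 6 h sample.

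The other G protein-gated subunits were under the filter. Kcnj6, the subunit that pairs with Kcnj9 and Kcnj3 in hippocampus, read 181, 50.9, 91.6 and 141 on 1 probe set and 87.7, 37.2, 34.1 and 32.5 on the other. Both were highest at 1 h, the peak hour of the second Kcnj9 probe set but not of the tested one. Kcnj3 read 35.9, 106, 171 and 48.2, with a peak at 4 h. Kcnj5, the partner of Kcnj3 in the heart, lay under the floor at every hour, at 13.1 to 28.2.

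Kcnj11 and Kcnj8 encode the pores of ATP-sensitive channels, which open when ATP falls. Kcnj11, the neuronal and beta cell form, read 71.7, 95.3, 276.5 and 339.5. It was higher at each step, with a span of 4.74-fold, and at a mean log2 intensity of 7.31 it fell just under the filter. With no filter limma gave it a slope of 0.48 ± 0.11 log2 per h (SE, n = 4) and an adjusted p of 1 over 8251 genes. In that fit 0 of 42 potassium channel genes had an adjusted p under 0.05, as did 0% of all genes. Without the filter 20 of 42 members spanned over 2-fold, some only as a bound set by the floor, where 32.1% of all genes did. At an unadjusted p under 0.05 that fit held 4 members, Kcnj11, Kcnj15, Kcnd1 and Kcne1l, and 3.09% of all genes. All 4 had a positive slope, but the share of positive slopes among all genes under that p was not taken. Kcnj9, under that p in the fit with the filter, had the same slope with no filter but a limma unadjusted p of 0.085. Unadjusted p-values thus depended on which genes were fitted together. Kcnj15 and Kcnd1 had values under the floor at 1 and 2 h. Kcne1l lay just above the floor at these hours, with 39.2 and 39.7. The regulatory subunit Abcc8, which Kcnj11 needs to reach the membrane, read 402, 284, 429 and 365 and did not share that course. Kcnj8, the form of pericytes and vascular muscle, read 37.1, 68.9, 33.6 and 91.3, and its regulatory partner Abcc9 57.3, 50.9, 61.3 and 8.4.

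Inward rectifiers best known from other tissues were under the filter, with most values under the floor. Kcnj1, the renal secretory channel, read 12, 41.9, 125 and 99.7 on 1 probe set and at most 22.3 on the other. Kcnj15 read 15.5, 28.4, 90.6 and 108 on 1 probe set and at most 21.3 on the other. Kcnj12 read at most 18.7, and Kcnj2, the classical strong rectifier of heart and vessels, read 54 at 1 h and was under the floor at the other hours. Of the family's 15 probe sets, 5 were above the floor at every hour and 4 were at or under it at every hour.

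**Figure D3:**
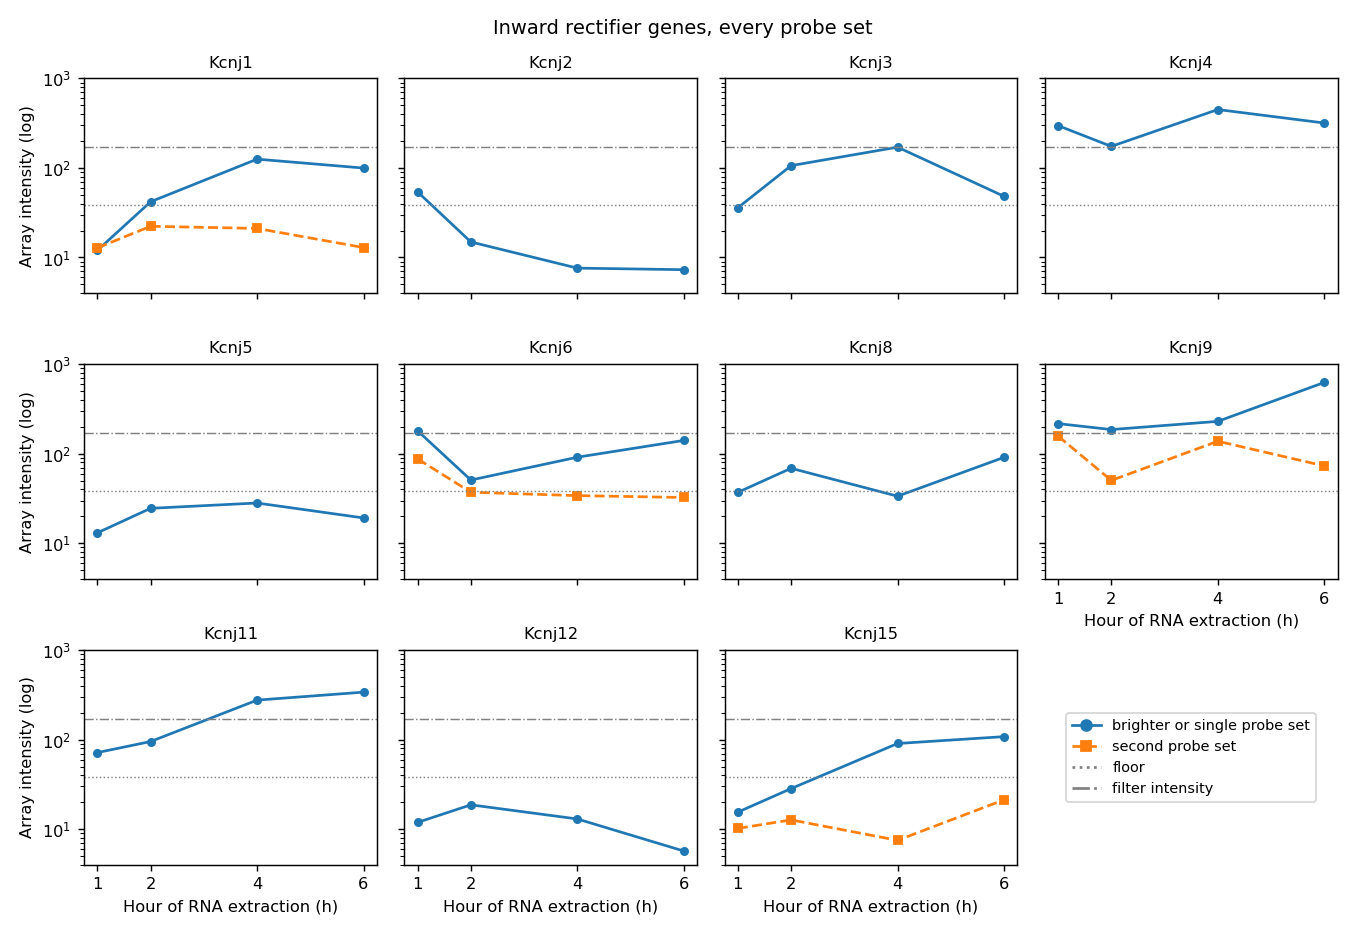
Array intensity (log axis) of all 15 probe sets of the 11 inward rectifier genes against the hour of RNA extraction, with 1 array per point, the floor of 38.3 as a dotted line and the filter intensity of 170.4 as a dash-dotted line. Kcnj11 goes up from 71.7 to 339.5, and for Kcnj9 the 6 h peak is on 1 probe set and not on the other.

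Tandem-pore leak channels, which set the resting conductance, had 4 of 5 genes past the filter. Kcnk1, a weakly inward rectifying leak channel, read 1929.9, 1838, 1348.5 and 2423 and was lowest at 4 h, 1.52-fold below the other hours. Kcnk2, a leak channel opened by stretch and lipids, read 1316, 2083, 2005 and 1561, lower at 1 and 6 h. Kcnk4, a mechanosensitive relative of Kcnk2, read 358, 504, 332 and 489 and was high at 2 and 6 h. Kcnk7, a subunit for which no current of its own is known, read 186.5, 230.4, 298 and 141 and spanned 2.11-fold between 4 and 6 h, a span that was under 2-fold with median scaling, quantile normalization or an added constant in place of the floor. The acid-sensitive channel Kcnk3 was above the floor at 4 h alone, with 26.5, 31.6, 59.3 and 15.8.

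Calcium-activated channels had 2 of 5 genes past the filter, counting the sperm channel Kcnu1 with them. Kcnma1, the pore of the large-conductance BK channel that shapes spike repolarisation and transmitter release, read 2269, 2025, 2165 and 2427.5, with a mean of 2222 ± 170 (SD, n = 4) and a span of 1.20-fold. Kcnn1, a small-conductance channel of the afterhyperpolarisation, read 479, 455.5, 296 and 494. It was 1.61-fold lower at 4 h than at the other hours, which lay close together. Kcnn4, the intermediate-conductance channel of blood cells and microglia, was under the filter at 148, 203, 230.2 and 38.6. The BK auxiliary subunit Kcnmb1, of smooth muscle, was under the floor at every hour, at 7.5 to 25.1, and Kcnu1 read 83.9, 30.1, 42.4 and 23.4.

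Probe sets of the same gene did not always follow the same course over the hours. Of the 9 genes with more than 1 probe set, 5 had a tested one, and in 0 of these 5 did both probe sets peak at the same hour. The lowest hour was shared by 1 of the 5, Kcnj9 at 2 h. Of the other genes with 2 probe sets, all under the filter, both peaked at 4 h for Kcna5 and at 1 h for Kcnj6. Where both probe sets of a gene were past the filter, the peak hour was shared by 0 of 2 potassium channel genes and by 32.8% of 610 genes in all. The second Kcnj9 probe set read 158, 50.4, 138 and 73.2, so that the ratio of the tested to the second went from 1.38 at 1 h to 8.56 at 6 h. The second Kcnq1 probe set read 157, 35.3, 34.4 and 34.8, above the floor at 1 h alone and with no peak at 4 h. For Kcnab1 the second read 163, 153, 236 and 181, lowest at the hour at which the tested one was highest. The second Kcnab2 probe set was lowest at 6 h, the peak hour of the tested one, with 2412, 2034, 2840 and 1946, and that of Kcnd2 was lowest at 2 h, with 156, 86.3, 154 and 175.

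Probe set names here follow the Affymetrix form, in which a letter before the _at ending marks probes chosen with relaxed rules (r) or shared with similar sequences (f or s). Such letters were carried by 7 of the 51 probe sets, among them the tested ones of Kcnj9, Kcnq1 and Kcnd2 (r) and of Kcnab2 (f). With all lettered probe sets left out, an alternative added after the values were seen, 15 potassium channel genes were past the filter. Kcnj9, Kcnq1 and Kcnd2 were no longer among them, and Kcnj11 was. The genes over 2-fold apart were then Kcnj4, Kcnk7 and Kcnj11.

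**Figure D4:**
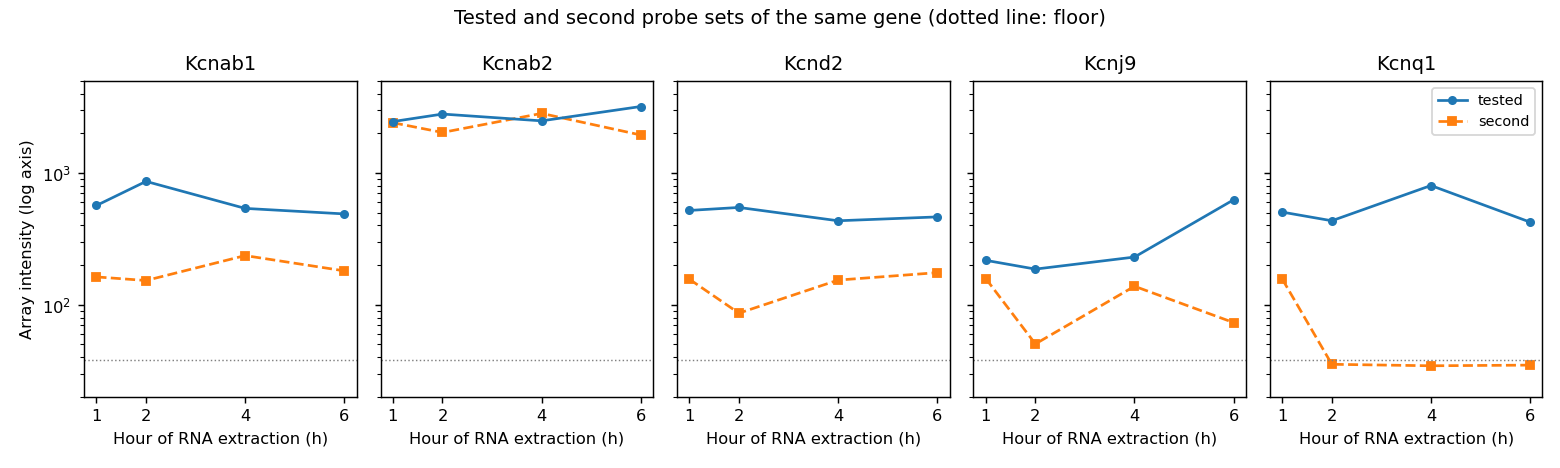
Array intensity (log axis) of the tested (blue, solid) and second (orange, dashed) probe set of the 5 tested genes with more than 1, against the hour of RNA extraction; the dotted line is the floor of 38.3. In 0 of the 5 do both probe sets peak at the same hour.

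Across the 17 genes the peaks were spread over the hours. The highest value was at 1 h for 1 gene (Kcns2), at 2 h for 4, at 4 h for 5 and at 6 h for 7, where the shares of all genes tested were 23.1%, 23.2%, 31.4% and 22.3%. The lowest value was at 1 h for 4 genes, at 2 h for 5, at 4 h for 4 and at 6 h for 4, against 24.5%, 23.2%, 29.2% and 23.1%. A set of 10 synaptic genes, listed because earlier results of these data showed their course, was highest at 1 h in 9 cases and lowest at 2 h in 8. Its summed intensity was 72335, 49109, 55072 and 62654. The 5 potassium channel genes with their minimum at 2 h were Kcna3, Kcnh1, Kcnj4, Kcnj9 and Kcnma1. Of the 29 probe sets of genes under the filter, 6, 4, 8 and 6 peaked at 1, 2, 4 and 6 h with a value above the floor. The 6 at 1 h were those of Kcnc1, Kcnu1, Kcna6, Kcnj2 and both of Kcnj6. No share over all genes under the filter was taken. The difference between the potassium channel genes and the synaptic genes was not tested.

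**Figure D5:**
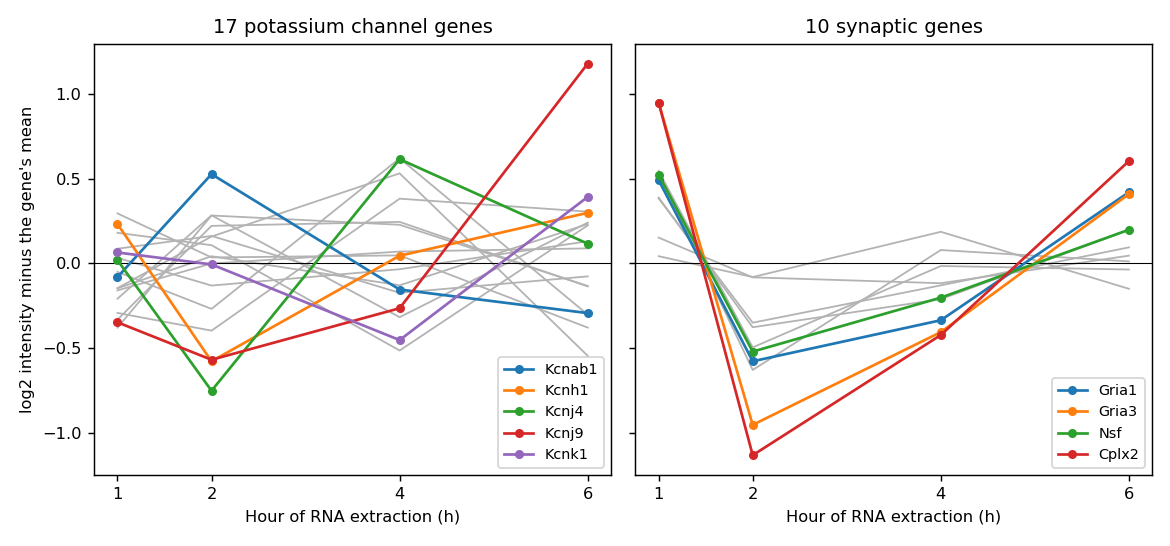
log2 intensity minus the gene's own mean over the 4 samples, against the hour of RNA extraction, for the 17 potassium channel genes past the filter (left) and 10 synaptic genes (right), with 1 line per gene and some genes coloured. The synaptic genes, listed because earlier results of these data showed their course, peak at 1 h in 9 of 10 cases. The potassium channel genes do so in 1 of 17 cases, and 23.1% of all genes tested do.

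Partner genes of these channels had a median span of 1.44-fold. Of 28 listed partners 18 had a probe set and 14 were tested, of which 0 were called with limma and 2 spanned over 2-fold. The G protein subunits Gng3 and Gnb2 were named for the highest means: Gng3 read 5915, 6921.5, 6741 and 6357 and Gnb2 4326, 5174, 4332 and 4657. Beta-gamma dimers of this family open the Kcnj9 class of channels. Among the 14 tested, the widest spans were those of Adam23, a synaptic adhesion protein of the Lgi1 complex, at 286, 349, 561 and 264.5, and Dlg4, the scaffold PSD-95 that clusters Kcna channels, at 680.3, 1150.1, 611 and 561. Cntnap1, an axonal adhesion protein near nodes of Ranvier, was under the filter and spanned 5.26-fold, with 112, 65.5, 325 and 344. Dpp6, the membrane partner of Kcnd2, read 554, 763, 544 and 565.5, with its peak at 2 h, the peak hour of the tested Kcnd2 probe set and the lowest hour of the second. Hcn2, a cation channel of the voltage-gated potassium channel superfamily, read 2012, 1659, 2653 and 1869.

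Of the 6 listed granule cell markers with a probe set, 4 were past the filter: Calb1, Dsp, Tdo2 and Prox1. Their summed intensities ran from 4523 to 5463. Markers of every other listed cell type were past the filter too, so this was no check of the tissue. Summed marker intensities ran from 23844 to 26741 for interneurons, 44778 to 49208 for astrocytes, 11696 to 12965 for oligodendrocytes, 7007 to 7741 for microglia and 1755 to 2284 for endothelial and mural cells. They ran from 6552 to 8820 for pyramidal and mossy cells of the CA fields and hilus and from 2127 to 2841 for thalamus and habenula. Sums follow their brightest genes. Of the 8 interneuron markers tested, 1 spanned over 2-fold, Lhx6 at 2.05-fold. Of the 4 thalamus and habenula markers tested, 2 spanned over 2-fold: Tcf7l2 read 412, 622.5, 291 and 127.5, and Lef1, which granule cell precursors also express, 456, 222, 911 and 501. The median intensity of all probe sets was 213 at 4 h and 184.8 to 187 at the other hours. As deposited, the 4 h values of all genes tested had a median of 0.02 log2 relative to the mean of the other hours, and with arrays scaled to equal medians it was −0.17. After such scaling 3 of the 17 genes were highest at 4 h in place of 5, and 16% of all genes in place of 31.4%. Lowest there were 7 of the 17 in place of 4, and 46.9% of all genes in place of 29.2%. Kcna3 and Kcnh2 were the 2 genes no longer highest at 4 h.

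Promoter sequences are shown for the 3 genes over 2-fold apart between hours and for Kcnma1, whose values were nearly level. Each window runs from 250 bases before to 50 bases after the annotated start, 5′ to 3′ on the gene's strand, from RefSeq on build GRCm38.p6. The windows are chr1:172329273-172329572 (minus strand) for Kcnj9, chr15:79505192-79505491 (minus) for Kcnj4, chr19:5704221-5704520 (plus) for Kcnk7 and chr14:24004156-24004455 (minus) for Kcnma1. Capitals mark the letters, on either strand, of the GC box GGGCGG, the CRE core TGACG, the E-box CACGTG and the TATA box TATAAA.
Kcnj9: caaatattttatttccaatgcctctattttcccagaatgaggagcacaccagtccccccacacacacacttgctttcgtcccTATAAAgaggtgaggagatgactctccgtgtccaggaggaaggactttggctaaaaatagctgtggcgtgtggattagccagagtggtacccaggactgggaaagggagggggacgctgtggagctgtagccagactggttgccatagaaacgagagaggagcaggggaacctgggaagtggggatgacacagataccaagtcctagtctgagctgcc
Kcnj4: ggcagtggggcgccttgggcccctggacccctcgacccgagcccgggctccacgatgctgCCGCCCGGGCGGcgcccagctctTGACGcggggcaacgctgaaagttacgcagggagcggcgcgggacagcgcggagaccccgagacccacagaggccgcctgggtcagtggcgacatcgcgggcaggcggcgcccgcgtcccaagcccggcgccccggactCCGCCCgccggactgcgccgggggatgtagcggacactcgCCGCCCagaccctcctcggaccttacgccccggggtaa
Kcnk7: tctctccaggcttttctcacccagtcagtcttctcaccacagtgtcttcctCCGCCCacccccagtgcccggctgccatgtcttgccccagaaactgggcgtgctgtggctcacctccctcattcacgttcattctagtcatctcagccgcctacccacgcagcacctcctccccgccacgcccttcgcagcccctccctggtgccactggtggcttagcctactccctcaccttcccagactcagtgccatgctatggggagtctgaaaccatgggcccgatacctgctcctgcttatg
Kcnma1: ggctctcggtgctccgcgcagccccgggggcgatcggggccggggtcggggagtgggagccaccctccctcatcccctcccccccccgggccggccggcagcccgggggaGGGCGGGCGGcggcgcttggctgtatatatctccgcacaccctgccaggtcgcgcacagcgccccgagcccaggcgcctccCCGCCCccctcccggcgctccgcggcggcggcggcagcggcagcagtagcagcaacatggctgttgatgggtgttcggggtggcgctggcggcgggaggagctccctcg

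The Kcnj9 window held 1 TATAAA and none of the other motifs, and its GC content was 52.3%. The Kcnj4 window, at 76% GC, held 4 GC boxes, of which 2 adjoin, and 1 CRE core. The Kcnk7 window held 1 GC box. The Kcnma1 window, at 78% GC, held 3 GC boxes, of which 2 overlap by their last and first letters, and no other motif. Of the 42 genes, 33 had a window in the table, with 42 windows in all. A GC box was found in 52.4% of these and in 35.7% of the 32851 windows of all genes. The larger set was not restricted to genes of the array, and a gene could have several windows. The shares were 19% and 20.8% for the CRE core, 9.52% and 7.15% for the E-box and 7.14% and 13.6% for the TATA box. The windows of potassium channel genes had a median GC content of 60.3%, against 52.7% for all. A match is a description of the letters and was not set against the values.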

How the data were processed

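RNA of 4 dentate gyrus samples was measured on arrays. The deposited table gives a linear intensity for each probe set in each sample; the authors' scanner, software and scaling steps are not stated in the labels. The mean without the top and bottom 2% was 500.3 on each array, so a common scaling by the authors was inferred and the deposited intensities were used as they are. Of 12488 probe sets, 66 were array controls, 1193 had no symbol in the platform annotation and 396 had several. The other 10833 named 8251 genes. Before log2, the 20th percentile of the whole table served as a floor. The brightest probe set by mean log2 stood for each gene, and the 4951 genes that reached the 40th percentile of these means were tested.

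log2 intensity was regressed on the hour in R 4.3.3 by limma 3.58.1 (lmFit, eBayes with an intensity trend; 2 residual degrees of freedom and, at the median, 10.4 prior ones), with Benjamini-Hochberg adjusted p called at 0.05. The fit was tested on simulated data. All potassium channel symbols matched RefSeq genes by identifier. No source says that the samples come from different animals. The number of arrays limits the precision.

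Named genes were, per family, the 2 brightest and the 2 with the widest span, those over 2-fold, those moving 1 way at every step over more than 1.5-fold and those with several probe sets. All others were added so that every probe set is accounted for. The members, lists and rules were chosen with earlier results of these data known. Alternatives were the floor, an added constant, median scaling, quantile normalization, the filter, the choice of probe set, the intensity trend and leaving out each sample.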

Additional observations from a re-analysis of the deposited data

Results flagged for a closer look

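In sets of 4 values, a value was set apart by its gap to the next as a share of the range, on the log2 scale with the floor. The criterion was a share over Dixon's 95% critical value for 4 values. Chance exceeds it in about 5% of sets of normal values without a floor. Where 3 values lay at or under the floor and 1 above it, the share was 1 by construction, so that rate does not apply to such sets. The 63 sets were the 51 potassium channel probe sets, the summed intensities of the listed gene sets and the median of all probe sets. Most sets were thus potassium channel probe sets from the start, and the same share over all probe sets was not taken. Of the 63 sets, 9 met the criterion, and 8 of them were potassium channel probe sets. In 6 of these 8 the other 3 values lay at or under the floor, so the criterion was met by 1 value above the floor. At 1 h these were Kcna6 at 62, Kcnj2 at 54, the dimmer Kcnj6 probe set at 87.7 and the second Kcnq1 probe set at 156.7. At 4 h they were Kcnk3 at 59.3 and the dimmer Kcna5 probe set at 116.9. Kcnu1 stood apart at 1 h with 83.9, where 42.4 was the only other value above the floor. Of the genes tested, Kcnn1 stood apart at 4 h, with 296.0 against 455.5 to 494. The median intensity of all probe sets stood apart at 4 h, with 212.8 against 184.8 to 187.3.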

How the results depend on the processing

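No potassium channel gene was called for a trend under any of the alternatives run, including those with 1 sample left out. The count over all genes was 0 with all 4 samples and 0 to 13 with 1 left out: 13 without the 1 h sample and 3 without the 6 h sample, each from a line through 3 arrays. The count of potassium channel genes over 2-fold apart, 3 of 17 as reported, was 20 of 42 with no filter, 0 of 11 with the filter at the 60th percentile, 5 of 19 with the mean of all probe sets and 7 of 24 with every probe set on its own. It was 1 to 3 with 1 sample left out: Kcnj9 alone without the 4 h sample and Kcnj4 alone without the 6 h sample. Of all genes, 15% spanned over 2-fold as reported and 32.1% with no filter. No such share was taken in the other settings, so the member counts there cannot be set against all genes. Kcnk7 was no longer over 2-fold with the added constant or quantile normalization (2 genes each) or with median scaling, where Kcnk1 was (3 genes). In settings that held the gene and hour, the largest departure of each of the 17 genes kept its sign except for Kcnab2. The departure of Kcnab2 at 6 h was −0.31 log2 with lettered probe sets left out and 0.31 as reported. Each hour was picked for its largest departure, and the other floors and filters left these values unchanged. Kept signs were thus largely fixed in advance. Kcnj9, Kcnq1 and Kcnd2 were not past the filter with lettered probe sets left out, so their signs were not compared there. Averaging probe sets, the departure of Kcnj9 at 6 h was 0.54 log2 in place of 1.57, that of Kcnq1 at 4 h 0.07 in place of 0.83, that of Kcnab1 at 2 h 0.19 in place of 0.70, and those of Kcnab2 at 6 h (0.0022) and Kcnd2 at 4 h (−0.012) were close to 0. Of the settings run, those that drop or average probe sets moved these values by their construction. Median scaling lowered every departure at 4 h. That of Kcnd2 went from −0.23 to −0.43 log2, that of Kcnk1 from −0.60 to −0.80 and that of Kcnq1 from 0.83 to 0.63. Levels near the floor limit what the 25 genes under the filter can show.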
